A study of Mus musculus with 17 samples.

Results

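The data described here are the small RNA libraries of Mael-/- and wild-type mouse testis, 4 of the 17 libraries of the series. They comprise 2 libraries of testis RNA from Mael-/- mice, which lack the gene Mael, and 2 from wild-type mice, all of the 129SvJae strain. RNA was selected on a gel at 15 to 50 nt before libraries were made with a kit that keeps the strand. The labels give neither the age of the mice nor how many animals stand behind a library, so a p-value sets genotypes against the spread between libraries alone, and that spread may be technical. Each library had a table of read counts per row, and the rows were of 5 types. Of 38205 rows, 100 were piRNA loci named after a chromosome band, such as 17-qA3.3-26735. Another 114 were piRNA loci named after a gene, such as pi-Trim71. The rest were Ensembl transcripts, of which 18286 were coding, 14099 were noncoding and longer than 200 nt, and 5606 were noncoding rows of at most 200 nt, called short rows below. The 214 piRNA loci stood in the files as 465 entries, and the entry with the most counts over the 4 libraries was kept for each locus.

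As background, MAEL (Maelstrom) is a germ cell protein that takes part in transposon silencing together with the PIWI proteins. Spermatogenesis of male mice without it is known to fail, and the stage that germ cells reached in the mice used here was not checked. PIWI-interacting RNAs, or piRNAs, are small RNAs cut from long single-stranded precursors and carried by PIWI proteins. In the adult mouse testis most piRNAs come from intergenic clusters that are switched on at the pachytene stage of meiosis by the transcription factor A-MYB, while piRNAs of other loci come mostly from the ends of protein-coding mRNAs and are already made before that stage.

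Library totals were 21887302 and 4832512 counts in Mael-/- and 44418162 and 7777204 in wild type. The libraries of a genotype differed by more than sampling noise, with a chi-square per degree of freedom of 49.4 over 10135 rows in Mael-/- and 12.03 over 9123 rows in wild type, and were kept as separate replicates. None of the 37991 Ensembl identifiers could be paired with a gene symbol. The transcript of Mael itself and the markers of testis cell types were therefore not analysed here, and the tissue label was not checked against markers. In such bulk libraries, fewer cells of a type and less RNA per cell cannot be told apart. The row types also overlap in the reads they hold, since 42 gene-named and 2 band-named loci had a transcript whose counts lay within 2% of their own in every library.

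Most small RNA counts lay at piRNA loci in either genotype. Band-named loci took 69.6 and 62.0% of counts in the Mael-/- libraries, against 79.4 and 78.6% in the wild-type libraries. Their mean share was 65.8% ± 5.37 in Mael-/- and 79.0% ± 0.539 in wild type (SD, n = 2 each). Gene-named loci took 5.85 and 6.41% in Mael-/-, against 3.83 and 3.81% in wild type. Neither pair of values overlapped the other genotype, but with 2 libraries a group the smallest p that a two-sided exact permutation test allows is 0.333, which is the p of both.

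Rows outside the piRNA loci made up most of the difference. Coding transcripts took 9.93 and 13.0% of counts in Mael-/- and 5.31 and 5.46% in wild type (exact permutation p = 0.333). Noncoding transcripts longer than 200 nt took 9.32 and 10.8% in Mael-/- and 4.66 and 4.48% in wild type (exact permutation p = 0.333). Shares of these transcripts were thus higher in each Mael-/- library than in either wild-type library. Short rows took 5.34 and 7.76% in Mael-/-, against 6.80 and 7.60% in wild type, and those values overlapped (exact permutation p = 1). The short rows were also split after their values were seen. A set of 14 was picked by high counts in both wild-type libraries, where their levels were near-identical. That pick favours lower values in Mael-/-, so the split describes the counts and tests nothing. The 14 near-identical short rows took 0.620 and 1.04% in Mael-/- and 5.87 and 6.46% in wild type. The other 5592 short rows, left over by the same pick, took 4.72 and 6.73% in Mael-/- and 0.929 and 1.14% in wild type.

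**Figure D1:**
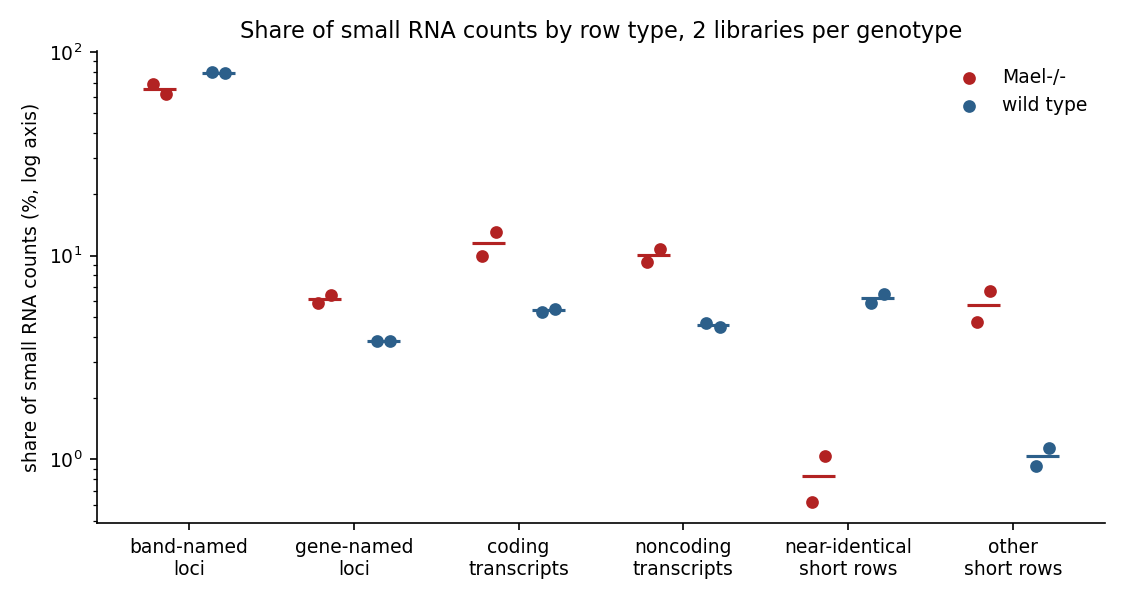
Share of small RNA counts by row type, in percent of each library's counts on a log axis, with 1 point for each library and a line at the mean of each genotype. Band-named piRNA loci hold 62.0 to 69.6% in Mael-/- and 78.6 to 79.4% in wild type, while the other types except the 14 near-identical short rows sit higher in Mael-/-. Those 14 rows were picked by their high wild-type counts.

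Single rows were compared with edgeR's quasi-likelihood test with Benjamini-Hochberg adjustment over the 9906 rows that passed its filter on low counts, and a row with an adjusted p under 0.05 is said to have risen or fallen in Mael-/-. Levels are given as scaled CPM, counts divided by the library size after TMM scaling and set to a common total, which sets the typical row of the 2 genotypes level. Of all rows tested, 381 (3.85%) rose and 351 (3.54%) fell, and the median log2 fold change was 0.15. The choice of scaling bears on every direction below, because the TMM scale lies 1.22 log2 units from one that uses library totals alone. With library totals, the median over all rows was 1.42, and 2450 rows (24.7%) rose and 139 (1.40%) fell. All 381 rows that rose with TMM also rose with library totals, 102 of the 351 that fell also fell, and none changed direction.

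The number of calls depended on single libraries. Without wild-type library a, 27 rows rose and 51 fell over all row types, and without wild-type library b, 128 rose and 204 fell. Without Mael-/- library a, 393 rose and 1059 fell, and without Mael-/- library b, 1219 rose and 676 fell.

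In Mael-/-, loci named after a band were lower as a class. Of the 99 loci tested, 94 had a log2 fold change below 0 and the median was -1.72, against 0.15 over all rows. The test called 18 of the 99 lower, or 18.2%, where 3.54% of all rows were called lower, and none of the 99 higher in edgeR, where 3.85% of all rows were. Before adjustment, 72 had a p under 0.05 and were lower and 3 were higher. DESeq2 called 70 lower and 2 higher, where it called 7.30% of the 6368 rows it tested lower and 5.42% higher. With library totals the median was -0.57 (1.42 over all rows), 46 loci fell and 11 rose, and all 18 loci that fell with TMM were among the fallen. In edgeR, 0 band-named loci fell without wild-type library a, 4 fell without wild-type library b, 94 fell and 2 rose without Mael-/- library a, and 79 fell and 5 rose without Mael-/- library b. The locus left untested, 1-qE2.3-2, is 122 nt long and held 22 and 2 counts in Mael-/- and 18 and 3 in wild type.

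**Figure D2:**
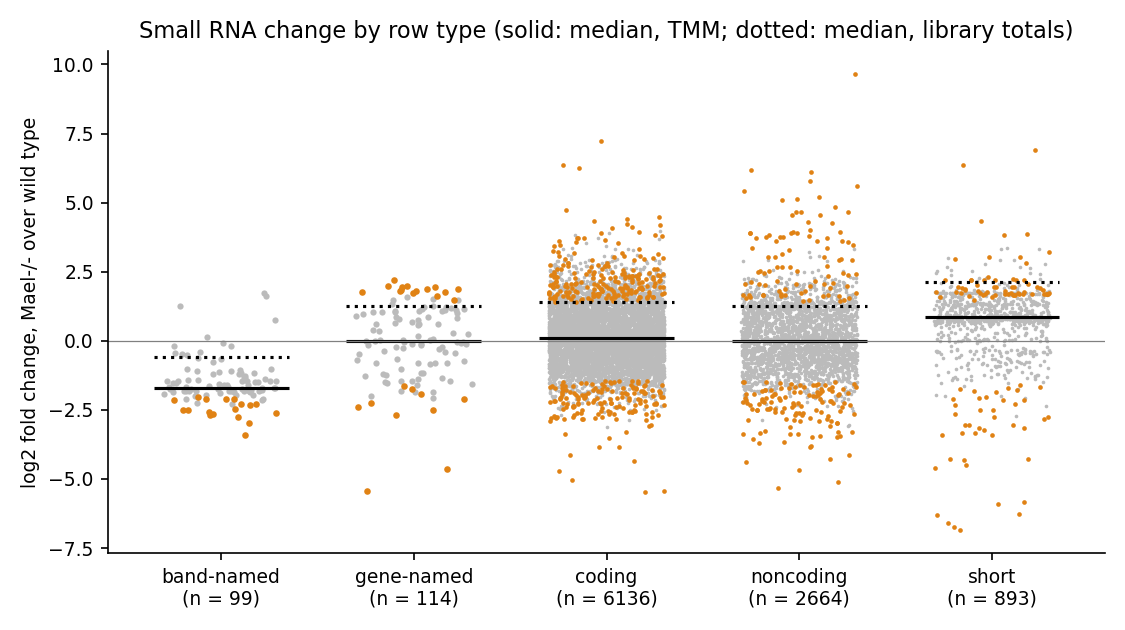
Log2 fold change of Mael-/- over wild type (TMM scale) of every row tested, by row type, 1 point each, in orange where the row was called. Solid lines mark the median with TMM and dotted lines the median with library totals. The TMM median is -1.72 for band-named piRNA loci, 0.00 for gene-named loci and 0.85 for short rows.

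The band-named locus with the most counts was 17-qA3.3-26735, 41944 nt long, which also led per length with 3247 CPM per kb, as a mean of the 4 libraries. It took 13.3 and 14.03% of all counts in Mael-/- and 14.4 and 12.8% in wild type, so its share overlapped between genotypes. Its log2 fold change was -1.19 ± 0.71 (SE) with TMM (adjusted p = 0.286, edgeR) and 0.02 with library totals. The next locus by counts, 2-qE1-35981, took 5.04 and 4.46% in Mael-/- and 6.15 and 6.42% in wild type. With TMM its log2 fold change was -1.56 (edgeR, adjusted p = 0.159), and with library totals it was -0.40 and passed the test (edgeR, adjusted p = 0.0420). None of the 10 loci with the most counts passed edgeR's test with TMM.

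The locus with the most counts held 19.1 and 22.7% of band-named counts in Mael-/- and 18.1 and 16.3% in wild type. The 10 highest loci of a library held 56.1 and 59.0% of its band-named counts in Mael-/- and 57.8 and 56.8% in wild type. To reach 90% of those counts took 37 and 36 loci in Mael-/- and 36 and 37 in wild type. Among the 10 loci with the most counts, 13-qA5-464 was the only one with a larger share of all counts in both Mael-/- libraries, 2.46 and 2.62%, against 1.30 and 1.24% in wild type. Its log2 fold change was -0.20 with TMM (edgeR, adjusted p = 0.852) and 1.00 with library totals (edgeR, adjusted p = 0.00261), so its direction turned with the scaling.

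The loci that fell were small in counts. Their mean over the 4 libraries ran from 23.4 to 2477 CPM, against as much as 136200 CPM among the loci that were not called. The largest fall was at 7-qF3-246, with 43.3 and 21.3 scaled CPM in Mael-/- and 355 and 329 in wild type, a log2 fold change of -3.40 ± 0.54 (SE; edgeR, adjusted p = 0.00759). Each Mael-/- library lay below both wild-type ones, as the rule that named the locus required, with the lower value in library b. At 10-qC2-545 there were 53.9 and 28.7 scaled CPM in Mael-/- and 362 and 292 in wild type, a log2 fold change of -2.98 ± 0.52 (edgeR, adjusted p = 0.0113).

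The named fallen locus with the most scaled CPM was 11-qE1-3997, with 1101 and 596 scaled CPM in Mael-/- and 6377 and 5072 in wild type (log2 fold change -2.75 ± 0.60 SE; edgeR, adjusted p = 0.0258). The 5 others named by size of change were 4-qB3-3994, 10-qA3-2592, 13-qA3.1-213, 19-qC2-1361 and 5-qG2-950, with log2 fold changes of -2.68 to -2.51. In each of these 8 loci, by the rule that named them, the higher Mael-/- library lay below the lower wild-type library, and this held for 88 of the 99 loci tested, against 25.5% of all rows. The reverse order held for 4 of the 99, against 33.8% of all rows. The 8 also fell with library totals, by 2.27 at 7-qF3-246 down to 1.38 at 5-qG2-950 on the log2 scale. Only 7-qF3-246 and 10-qC2-545 still fell without wild-type library b, and none of the 8 without wild-type library a.

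Calls among band-named loci went with short length. Of the 33 shortest loci tested, of 918 to 8914 nt, 12 fell and the median log2 fold change was -1.83. Among the 33 of middle length 6 fell with a median of -1.54. Among the 33 longest, of 26980 to 69600 nt, edgeR called 0 lower, with a median of -1.43, while 18 were lower before adjustment and 18 by DESeq2. Fold change and length had a Spearman correlation of 0.44 across the 99 loci, which share libraries and scaling. The part of counts in this was not tested. Split by counts in place of length, 14 of the 33 loci with the fewest counts fell and 0 of the 33 with the most fell in edgeR, where 21 were lower before adjustment and 22 by DESeq2.

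A few band-named loci went the other way. The 5 loci above 0 with both TMM and library totals were 3-qA2-617, 13-qA5-208, 2-qE5-4, 7-qD2-40 and 14-qA3-2286. With library totals alone 22 of the 99 were above 0. Locus 3-qA2-617 had 4049 and 2453 scaled CPM in Mael-/- and 1055 and 910 in wild type, without overlap. The log2 fold change was 1.73 ± 0.55 (SE) with TMM (edgeR, adjusted p = 0.0700) and 2.90 with library totals, which passed the test (edgeR, adjusted p = 0.000289). Locus 13-qA5-208 had 10380 and 6150 scaled CPM in Mael-/- and 3036 and 2274 in wild type, with a log2 fold change of 1.64 with TMM (edgeR, adjusted p = 0.0974) and 2.82 with library totals (edgeR, adjusted p = 0.000189). These loci were named after their values were seen. The share of all counts of 13-qA5-208 did not overlap either, at 1.23 and 1.20% in Mael-/- and 0.175 and 0.169% in wild type.

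Loci of 1 band did not all move alike. The loci lay in 53 bands of 18 chromosomes, and 28 bands held at least 2 tested loci. The 5 loci of band 13-qA5 ran from -1.95 to 1.64 in log2 fold change, and the 5 of 10-qC1 from -1.63 to -0.09. The 3 of 17-qA3.3 lay close together, from -1.49 to -1.19. In bands 7-qF3, 10-qA3 and 13-qA3.1 both loci fell, with -3.40 and -2.49 at 7-qF3. The median of the tested loci was below 0 on each of the 18 chromosomes with TMM, from -2.58 on chromosome 19, with 1 locus, to -0.13 on chromosome 3, with 2 loci.

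Gene-named piRNA loci split into loci that rose and loci that fell. All 114 were tested, 57 had a log2 fold change above 0 and 57 below, and the median was 0.00, against 0.15 over all rows. The test called 15 higher (13.2%, against 3.85% of all rows) and 10 lower (8.77%, against 3.54%). With library totals the median was 1.25 (1.42 over all rows), 71 rose and 12 fell, and the 15 that rose and 7 of the 10 that fell with TMM were among them. Without wild-type library a, 0 rose and 2 fell in edgeR, and without wild-type library b, 0 rose and 3 fell. Without Mael-/- library a, 13 rose and 40 fell, and without Mael-/- library b, 47 rose and 25 fell. When TMM was computed on short rows alone, 0 rose in edgeR, while with TMM over all rows 37 were higher before adjustment and 17 by DESeq2.

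The deepest fall among piRNA loci was at pi-Cdc42ep3, a locus of 2062 nt named after an effector of the small GTPase CDC42. It had 2.94 and 2.76 scaled CPM in Mael-/- and 130 and 119 in wild type, so the Mael-/- libraries agreed closely. That they lay below both wild-type ones was required by the rule that named the locus. This order held for 36.0% of gene-named loci and 25.5% of all rows. The log2 fold change was -5.44 ± 0.51 (SE; edgeR, adjusted p = 0.00127) and -4.24 with library totals. At pi-Wdfy3, named after an adaptor protein of selective autophagy, there were 11.9 and 5.94 scaled CPM in Mael-/- and 242 and 205 in wild type (log2 fold change -4.63 ± 0.55 SE; edgeR, adjusted p = 0.00204). These 2 loci still fell when either library of either genotype was left out, which held for no other named piRNA locus.

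The 6 other named loci that fell changed less. At pi-Ccdc117 there were 19.0 and 12.5 scaled CPM in Mael-/- and 110 and 91.8 in wild type, with a log2 fold change of -2.67. The next were pi-Kctd7 with -2.50, pi-Arhgap20 with -2.41, and pi-Ipmk, after a kinase of inositol phosphates, with -2.25. At pi-Mgll, named after the lipase of monoacylglycerols, there were 61.8 and 38.0 scaled CPM in Mael-/- and 251 and 182 in wild type (log2 fold change -2.11). At pi-Slc43a2, named after a transporter of neutral amino acids, there were 65.2 and 51.6 in Mael-/- and 238 and 203 in wild type, and the log2 fold change of -1.92 was -0.69 with library totals and no longer passed (edgeR, adjusted p = 0.0687). The remaining 2 that fell were pi-Mrs2 and pi-1700016M24Rik.

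The loci that rose were low in counts, with means of 7.78 to 64.6 CPM over the 4 libraries, against 26.7 to 478 CPM for those that fell. The largest rise was at pi-Trim71, a locus of 9243 nt named after an RNA-binding ubiquitin ligase of early development. It had 31.7 and 28.01 scaled CPM in Mael-/- and 8.14 and 4.51 in wild type, a log2 fold change of 2.20 ± 0.44 (SE; edgeR, adjusted p = 0.0187). By the rule that named the locus, both Mael-/- libraries lay above both wild-type ones, an order that held for 43.0% of gene-named loci and 33.8% of all rows. At pi-Igf2bp1, named after an mRNA-binding protein, there were 22.8 and 21.1 scaled CPM in Mael-/- and 6.98 and 3.82 in wild type (log2 fold change 1.98 ± 0.43 SE; edgeR, adjusted p = 0.0245).

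At pi-Tet3, named after an enzyme that oxidises 5-methylcytosine, there were 39.4 and 35.4 scaled CPM in Mael-/- and 11.1 and 7.81 in wild type (log2 fold change 1.96). At pi-Foxo3, named after a forkhead transcription factor, there were 19.7 and 22.3 in Mael-/- and 5.46 and 6.42 in wild type (log2 fold change 1.83). The 4 others named by size were pi-Fbxo41, pi-Ankrd11, pi-Uhrf1bp1 and pi-Klf13, with log2 fold changes of 1.96, 1.95, 1.87 and 1.87. Each of the 8 also rose with library totals, with log2 fold changes of 3.10 to 3.49, but that scaling moves all rows upward in Mael-/- relative to TMM. With TMM on short rows 0 of the 8 passed the test in edgeR, while DESeq2 called all 8 higher. The other 7 that rose were pi-Rcan3, pi-Bend4, pi-Ssh1, pi-Rad54l2, pi-Mafg, pi-Ppm1f and pi-Ndst1.

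**Figure D3:**
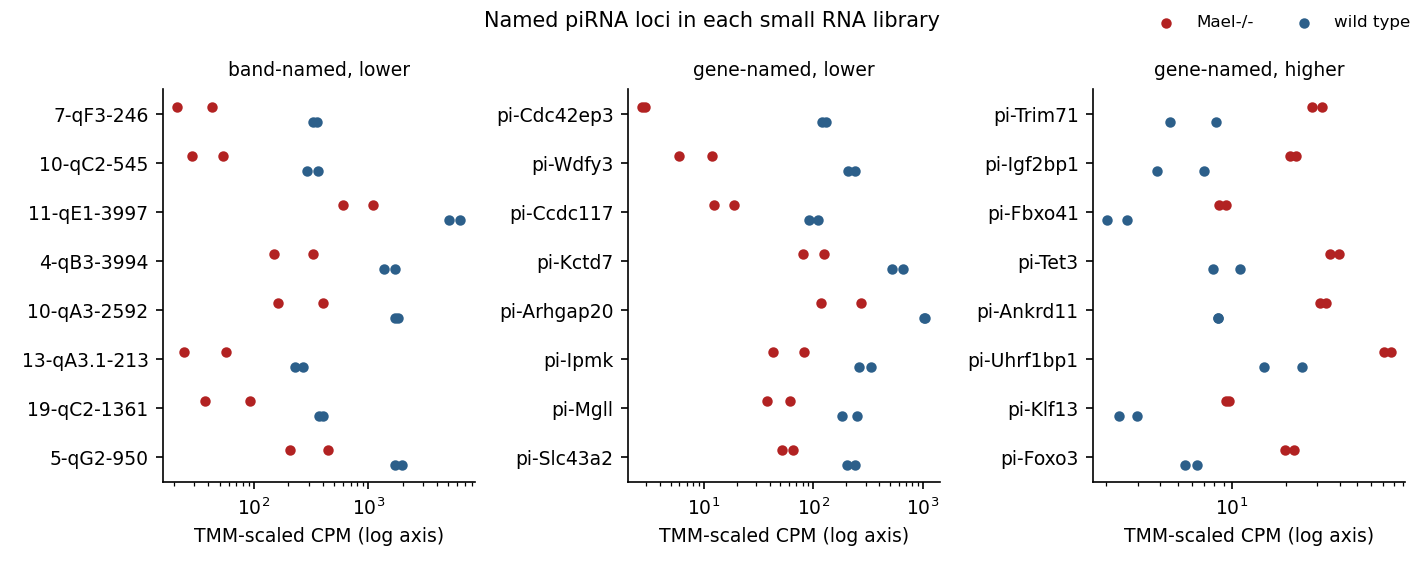
Scaled CPM (log axis) of the 24 piRNA loci named by size of change among called loci without overlap between genotypes, with 1 point for each library and 1 row for each locus. At pi-Cdc42ep3 the Mael-/- libraries sit at 2.94 and 2.76 and the wild-type libraries at 130 and 119, and at pi-Trim71 the Mael-/- libraries, at 31.7 and 28.01, sit above the wild-type ones, at 8.14 and 4.51.

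Loci were also grouped by lists of genes of like role, which do not hold every gene of a role. Of the 18 loci on the list of chromatin and transcription genes, 4 rose, pi-Ankrd11, pi-Foxo3, pi-Klf13 and pi-Tet3, where 3.85% of all rows and 13.2% of gene-named loci rose. None of the 18 fell in edgeR, where 3 were lower before adjustment and 3 by DESeq2, and their median log2 fold change was -0.12. Of the 4 loci on the list of RNA silencing and RNA binding, pi-Trim71 and pi-Igf2bp1 rose, beside the same shares, and the median was 0.27. The other 2, pi-Eif2c2 and pi-Ddx19b, went the other way, with log2 fold changes of -1.49 and -1.44. In this list 2 loci were lower before adjustment and 2 by DESeq2, which called 21.9% of gene-named loci lower. Of the 8 on the list of the ubiquitin pathway, pi-Fbxo41 rose and pi-Kctd7 fell, with a median of -0.79, where 3.54% of all rows and 8.77% of gene-named loci fell. Before adjustment 1 of the 8 was higher and 4 were lower, and the same numbers were called by DESeq2. Of the 5 on the list of kinases, phosphatases and inositol phosphate enzymes, pi-Ipmk fell, beside the same shares that fell. Their median was 0.78. Before adjustment 2 of the 5 were higher and 1 was lower, and DESeq2 called 0 higher and 1 lower. The 79 loci on no list gave 8 that rose and 8 that fell. Of all gene-named loci 13.2% rose and 8.77% fell, and of all rows 3.85% rose and 3.54% fell. The median of the 79 was 0.02, against 0.15 over all tested rows. Among those 79 are loci named after genes of the same roles that the lists did not hold, some called and some not. Examples are pi-Mafg and pi-Tef, after transcription factors, and pi-Ppm1f, pi-Ssh1 and pi-Ctdsp2, after phosphatases. Of these, pi-Mafg, pi-Ppm1f and pi-Ssh1 rose, while pi-Tef and pi-Ctdsp2 were not called.

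The gene-named locus with the most counts, pi-D10Wsu102e, is 122736 nt long. It took 3.34 and 3.54% of all counts in Mael-/- and 1.67 and 1.59% in wild type, without overlap. Its log2 fold change was -0.12 with TMM (edgeR, adjusted p = 0.915) and 1.08 with library totals (edgeR, adjusted p = 0.00214). Within the gene-named counts it held 57.1 and 55.2% in Mael-/- and 43.6 and 41.7% in wild type. To reach 90% of gene-named counts took 30 and 37 loci in Mael-/- and 25 and 24 in wild type.

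The 5 loci next to it by counts did not pass the test with TMM and fell into 2 kinds. At pi-Tmem194, the share was 0.178 and 0.137% in Mael-/- and 0.253 and 0.268% in wild type, and pi-Zfp382 and pi-Tbl2 were likewise lower in both Mael-/- libraries. Their log2 fold changes were -1.86, -1.83 and -2.06 with TMM (edgeR, adjusted p = 0.0689, 0.0636 and 0.0516). At pi-Ccrn4l, named after the gene of nocturnin, the share was 0.223 and 0.265% in Mael-/- and 0.117 and 0.109% in wild type, and pi-Phf20 was likewise higher. Their log2 fold changes were -0.11 and -0.26 with TMM but 1.12 and 0.94 with library totals. Across the 114 loci fold change and mean CPM had a Spearman correlation of -0.42, and the loci share libraries and scaling.

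Promoter sequence was set beside these calls, because pachytene piRNA genes are known to carry sites of A-MYB. RefSeq promoters of the build GRCm38.p6 were matched by symbol for 85 of the 114 loci, with 104 windows of 250 bases before a transcript start. The letters TAACNG, or CNGTTA on the other strand, are the core of MYB sites. They stood in 3 of 8 windows of loci that fell (37.5%), in 1 of 11 of loci that rose (9.09%) and in 11 of 85 of the others (12.9%), against 19.8% of the 32851 windows of all genes in the table. Windows of the same gene were counted separately. The 8 windows came from 6 loci, the 11 from 11 and the 85 from 68, and the 3 with the letters belonged to 2 fallen loci, pi-Mgll and pi-Slc43a2. The counts are too small to read an order from them. Shown are the windows of the deepest fall, pi-Cdc42ep3 at chr17:79355092-79355341 on the minus strand, and of the largest rise, pi-Trim71 at chr9:114564370-114564619 on the minus strand. A window of 2 fallen loci that hold the letters follows, pi-Mgll at chr6:88724454-88724703 and pi-Slc43a2 at chr11:75531444-75531693, both on the plus strand. Each is printed 5′ to 3′, and capitals mark a match to the letters.
pi-Cdc42ep3: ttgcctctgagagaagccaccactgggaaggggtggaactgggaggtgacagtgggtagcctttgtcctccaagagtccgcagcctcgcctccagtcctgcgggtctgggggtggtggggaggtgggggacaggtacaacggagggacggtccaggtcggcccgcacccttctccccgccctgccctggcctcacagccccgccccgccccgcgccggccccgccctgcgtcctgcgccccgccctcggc
pi-Trim71: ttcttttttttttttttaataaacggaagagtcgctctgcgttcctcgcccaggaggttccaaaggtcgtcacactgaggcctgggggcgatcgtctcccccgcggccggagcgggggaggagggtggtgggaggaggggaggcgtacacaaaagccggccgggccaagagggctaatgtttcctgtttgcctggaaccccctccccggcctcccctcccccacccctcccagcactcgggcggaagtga
pi-Mgll: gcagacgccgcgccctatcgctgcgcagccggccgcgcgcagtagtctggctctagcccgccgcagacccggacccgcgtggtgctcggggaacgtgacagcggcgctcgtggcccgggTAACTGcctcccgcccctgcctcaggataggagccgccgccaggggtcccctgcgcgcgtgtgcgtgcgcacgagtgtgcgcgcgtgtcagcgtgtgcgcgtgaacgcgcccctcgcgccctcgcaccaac
pi-Slc43a2: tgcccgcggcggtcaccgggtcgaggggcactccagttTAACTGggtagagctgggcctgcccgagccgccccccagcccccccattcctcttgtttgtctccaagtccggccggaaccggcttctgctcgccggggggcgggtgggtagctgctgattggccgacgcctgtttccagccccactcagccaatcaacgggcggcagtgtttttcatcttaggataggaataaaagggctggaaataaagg
The windows of pi-Cdc42ep3 and pi-Trim71 hold no match, which says only that these letters are not in these 250 bases.

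The piRNA loci were also read in long RNA precipitated with an anti-MAEL antibody, in 2 libraries of 5702776 and 10800521 counts against 1 of 7779903 counts with IgG, which the small RNA fit did not use. Given as the log2 ratio of anti-MAEL over IgG with a pseudocount of 0.5 CPM and no test, the 15 gene-named loci that rose in Mael-/- small RNA had a median of -0.63, from -1.01 to -0.28, so none was above 0. The 10 that fell had a median of 0.63, from -0.13 to 2.87, and 9 were above 0. The 89 others had a median of -0.01, with 43 above 0. Loci that rose and loci that fell did not overlap in this ratio.

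Among band-named loci the ratio ran the other way with the calls. The 18 that fell had a median of 1.08, with 15 above 0, against 2.0 and 78 above 0 among the 81 that were not called. The 18 were also scarcer and shorter, with medians of 430 CPM and 6066 nt against 3492 CPM and 19180 nt. Loci not called were not unchanged, since 72 of the 99 were lower before adjustment and 70 by DESeq2. Across loci the Spearman correlation of the ratio with the small RNA fold change was -0.64 for the 114 gene-named loci and 0.36 for the 99 band-named loci. Loci that rose also had the fewest small RNA counts, at a median of 18.8 CPM against 93.0 CPM for gene-named loci that fell, and the part of abundance in the ratio was not tested.

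**Figure D4:**
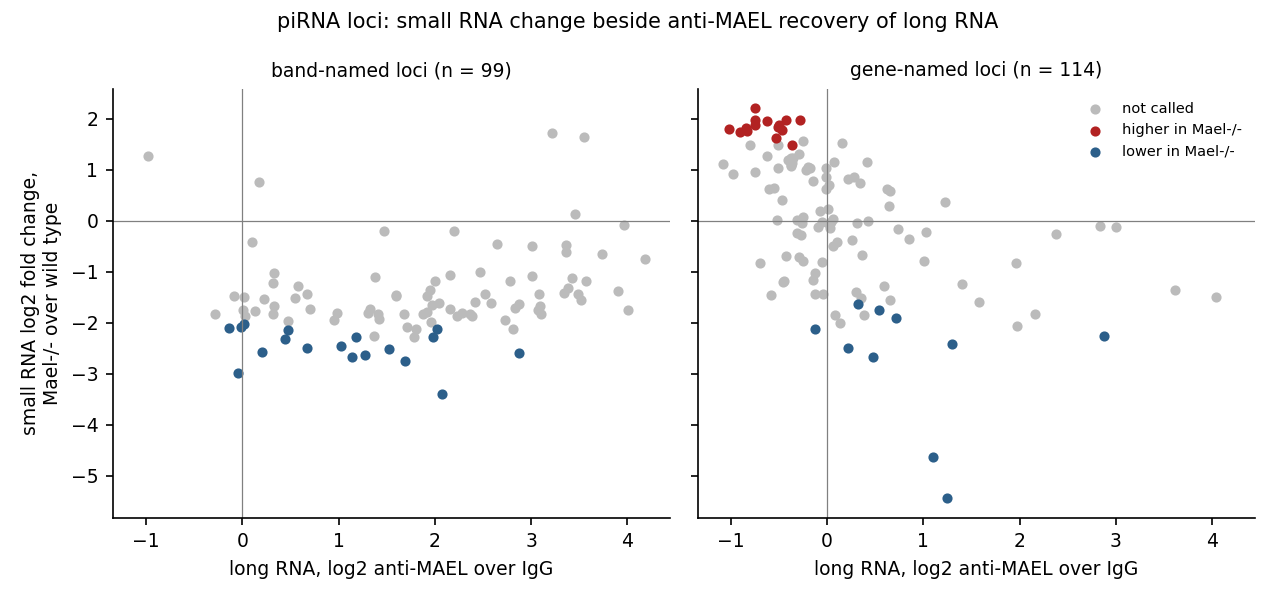
Log2 fold change of small RNA, Mael-/- over wild type (vertical axis), against the log2 ratio of anti-MAEL over IgG in long RNA (horizontal axis), with 1 point for each piRNA locus tested and a panel for each type. On the horizontal axis the 15 gene-named loci that rose lie between -1.01 and -0.28 and those that fell between -0.13 and 2.87.

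Coding transcripts were called about as often as all rows. Of 6136 tested, 211 rose (3.44%) and 157 fell (2.56%), against 3.85 and 3.54% of all rows, and the median was 0.11. The balance turned with RLE size factors (127 rose, 162 fell), DESeq2 (135 and 200) and a mean of 5 CPM or more (313 and 336). With library totals 1395 rose (22.7%) and 40 fell (0.652%), against 24.7 and 1.40% of all rows. All 211 and 36 of the 157 were among them. Past a log2 fold change of 2 in size, 119 rose and 97 fell. Without wild-type library a, 9 rose and 25 fell, without wild-type library b 72 and 88, without Mael-/- library a 222 and 483, and without Mael-/- library b 632 and 348. A part of these counts belongs to piRNA loci as well: 43 coding transcripts with counts within 2% of a locus held 6.94% of the coding counts in Mael-/- and 12.5% in wild type. The coding row with the most counts, of 3389 nt, held 17.0 and 13.9% of coding counts in Mael-/- and 16.9 and 15.8% in wild type.

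The fold changes of small RNA at coding transcripts went with those of the mRNA itself. The mRNA was measured in 4 other libraries of the same genotypes, with 5746533 and 4130509 counts in Mael-/- and 15372210 and 6732376 in wild type. Of 5641 transcripts tested in both assays, the 187 whose small RNA rose had a median mRNA log2 fold change of 1.05, and 175 of them were above 0. The 138 whose small RNA fell had a median of -0.67, and 103 were below 0. The 5316 that were not called had a median of -0.02, and over all 5641 the median was 0.00, with 50.2% above 0.

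Across the 5641 transcripts, Pearson's r of the fold changes was 0.51 and Spearman's coefficient 0.50. Transcripts are not independent replicates, so these values are a description. Pearson's r was 0.51 with library totals and 0.36 over the 1598 transcripts whose small RNA averaged 5 CPM or more. It was 0.44 and 0.50 without Mael-/- library a or b, and 0.53 and 0.36 without wild-type library a or b. Fragments of mRNA and small RNAs made from it cannot be told apart in counts per transcript.

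**Figure D5:**
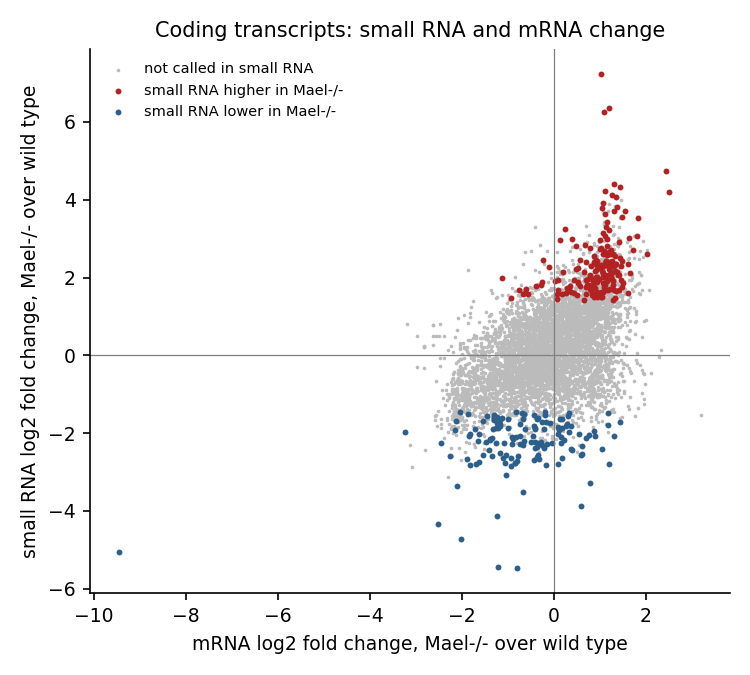
Log2 fold change of small RNA (vertical axis) against that of mRNA (horizontal axis), Mael-/- over wild type, for the 5641 coding transcripts tested in both assays, 1 point each. Transcripts whose small RNA rose have a median mRNA log2 fold change of 1.05 and those whose small RNA fell one of -0.67.

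Noncoding transcripts longer than 200 nt were also called about as often as all rows. Of 2664 tested, 93 rose (3.49%) and 124 fell (4.65%), with a median of 0.00, against 3.85 and 3.54% of all rows and a median of 0.15. With library totals 588 rose (22.1%) and 25 fell (0.938%), against 24.7 and 1.40% of all rows. The balance thus turned with the scaling, as it did over all rows. Past a log2 fold change of 2 in size, 68 rose and 82 fell, and past one of 4 in size, 18 rose and 6 fell. Those 18 were of 427 to 1170 nt and had at most 3.46 scaled CPM in wild type, so their fold sizes rest on low wild-type levels. Past the same size, 11 of 6136 coding transcripts rose and 6 fell, and 3 of 893 short rows rose and 12 fell. Without wild-type library a, 15 rose and 16 fell, without wild-type library b 44 and 84, without Mael-/- library a 101 and 355, and without Mael-/- library b 290 and 177.

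The 2 largest rises among transcripts that averaged 5 CPM or more and did not overlap between genotypes had few counts in wild type. Transcript ENSMUST00000075573, of 684 nt, had 244 and 73 counts in Mael-/- and 5 and 0 in wild type, where 3 counts of the second wild-type library stand for 0.386 CPM. Its log2 fold change was 5.78 ± 0.67 (SE; edgeR, adjusted p = 0.00166). Transcript ENSMUST00000099046, of 675 nt, had 392 and 119 counts in Mael-/- and 8 and 1 in wild type (log2 fold change 5.61 ± 0.54 SE; edgeR, adjusted p = 0.00127). Both still rose under each scaling and without any 1 library.

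Short rows had the highest median of the 5 types. Of 893 tested, 62 rose (6.94%) and 42 fell (4.70%), against 3.85 and 3.54% of all rows, and the median was 0.85, against 0.15 over all rows. With library totals 385 rose (43.1%) and 16 fell (1.79%), against 24.7 and 1.40% of all rows. The median was then 2.13, against 1.42 over all rows. Falls outnumbered rises with RLE size factors (23 rose, 45 fell), TMM on short rows (7 and 60) and no filter on low counts (20 and 33). Without wild-type library a, 3 rose and 8 fell, without wild-type library b 12 and 25, without Mael-/- library a 55 and 87, and without Mael-/- library b 245 and 47.

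The 2 largest falls among transcripts under the same conditions were short rows. ENSMUST00000122512, of 184 nt, had 78.0 and 33.9 scaled CPM in Mael-/- and 7035 and 5973 in wild type, a log2 fold change of -6.86 ± 0.76 (SE; edgeR, adjusted p = 0.00163). ENSMUST00000083808, of 133 nt, had 81.1 and 40.2 in Mael-/- and 7040 and 5981 in wild type, with -6.74 ± 0.74 on the log2 scale (edgeR, adjusted p = 0.00163). Both belong to the 14 short rows picked by high counts in both wild-type libraries, where their levels were near-identical. Whether such rows share reads was not tested, so they are not read as 14 separate results. Those rows are 133 to 191 nt long, and 10 of them are of 191 nt. Their wild-type levels ran from 7035 to 7491 scaled CPM in one library and from 5973 to 6497 in the other, while their Mael-/- levels spread from 78.0 to 792 and from 33.9 to 881. All 14 fell with either scaling, with log2 fold changes of -6.86 to -3.06, a direction that the pick by high wild-type counts favoured.

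Of the 879 other short rows tested, 714 had a log2 fold change above 0 with TMM, against 5413 of all 9906 rows. Of the 879, 62 rose and 28 fell, where 3.85% of all rows rose and 3.54% fell. That balance rests on the scaling as above, and on leaving out the 14 rows, which all fell. Among the other short rows, those of 101 to 120 nt held most counts, with 3.08 and 4.12% of all counts in Mael-/- and 0.511 and 0.697% in wild type. Of 414 such rows tested, 389 were above 0, 26 rose and 9 fell, beside the same shares of all rows. Their median was 0.89, against 0.15 over all rows. Rows of 161 to 200 nt took 0.883 and 1.59% in Mael-/- and 0.165 and 0.191% in wild type. Rows of 121 to 140 nt were the one length class with a median below 0, at -0.35, with 4 of 140 tested rows that rose and 6 that fell. The gene types of these rows are not analysed here.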

How the data were processed

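Per the labels' protocols, testis RNA was size-selected on a polyacrylamide gel and made into libraries with a ScriptMiner kit that keeps the strand. The values deposited by the authors are raw counts of reads for each row. The build mm9 and the tools TopHat2 2.0.7, Bowtie2 2.0.6 and CASAVA 1.8 are named, without a role, in the submitters' processing notes. No source used here says how a read that matches several rows was assigned, so rows that overlap, lie antisense or are near-identical are uncertain.

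Groups were taken from the labels. Each locus was reduced to its entry with the most counts over the 4 libraries. edgeR 4.0.16 (R 4.3.3, limma 3.58.1) tested Mael-/- against wild type with genotype as the only term, TMM scaling, filterByExpr and Benjamini-Hochberg adjustment at 0.05. Errors of fold changes are standard errors (SE) and those of means are SD over 2 libraries. DESeq2 1.42.0, other scalings, filters, ways of treating entries, a replicate block and leaving out each library were alternatives. Fold changes of mRNA came from the same fit on 4 mRNA libraries, over coding transcripts. Tables and figures used Python 3.11.15, pandas 2.3.3, numpy 2.4.6, scipy 1.17.1 and matplotlib 3.10.9.

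On simulated small RNA counts of 38205 rows, 2 of 100 changes of 2-fold and 40 of 100 of 4-fold were recovered, with 4 false calls among 46. For mRNA, with 18286 rows, 9 and 86 of 100 were recovered, with 2 false calls among 97. Shares and the floor of 3 counts for a count of 0 cover counting error only, since reads were not tied to single molecules.

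Named were the 10 band-named and 6 gene-named loci with the most counts, the 8 loci of each of these types with the largest called change in each direction at a mean of at least 5 CPM with no overlap between genotypes, and 2 transcripts per direction. The members, the rule and the lists of genes by role were chosen with earlier results of these data known. Loci or rows named beyond that rule were chosen after their values were seen.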

Additional observations from a re-analysis of the deposited data

How the results depend on the processing

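Counts of rows that rose and fell moved with most settings. With library totals in place of TMM, 2450 rows rose and 139 fell over all types, 11 and 46 of them band-named, 71 (rose) gene-named, 1395 and 40 coding, 588 and 25 noncoding, and 385 and 16 short. With TMM computed on short rows, 73 rose and 735 fell, with 30 band-named lower, 0 gene-named higher, 28 and 375 coding, 38 and 258 noncoding, and 7 short higher. With RLE size factors 226 rose, of which 9 were gene-named, 127 coding and 23 short. Without a filter on low counts 233 rose, with 7 band-named lower, 2 and 3 gene-named, and 20 short higher. With a mean of at least 5 CPM required, 695 rose and 696 fell, with 3 and 83 band-named, 28 and 31 gene-named, 336 coding lower, 154 and 206 noncoding, and 197 short higher. DESeq2 gave 2 and 70 band-named, 25 gene-named lower, 135 coding higher and 116 short higher. With every entry kept, 585 rose, with 66 band-named lower, 27 and 34 gene-named, and 136 short higher. Summing the entries of a locus or keeping 1 row per set of identical counts left every count of a type within 1.5 times.

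Leaving out each library in turn gave 27 to 1219 rows higher and 51 to 1059 lower. By type this was 0 to 5 and 0 to 94 band-named, 0 to 47 and 2 to 40 gene-named, 9 to 632 and 25 to 483 coding, 15 to 290 and 16 to 355 noncoding, and 3 to 245 and 8 to 87 short. Where a genotype is left with 1 library, that library is assumed to vary like the other genotype's.

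The labels share replicate letters between genotypes but do not say that a letter marks a shared animal or day. The deviations of libraries a and b correlated at 0.55 between genotypes over 9906 rows and at -0.20 over 213 piRNA loci. Over the 3248 rows whose mean log2 level lay above that of 5 scaled CPM, the correlation was 0.71. The main fit held no term for the letter. With a replicate block, 2318 rows rose and 1754 fell, with 4 and 79 band-named, 48 and 38 gene-named, 1214 and 976 coding, 516 and 553 noncoding, and 536 and 108 short.

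Directions reversed at 5 named loci that had not passed the test with TMM. These were 17-qA3.3-26735 (0.016 with library totals), 13-qA5-464 (1.00 with library totals, and -0.86 to 0.25 leaving out each library), pi-D10Wsu102e (1.08, and -0.79 to 0.33), pi-Ccrn4l (1.12, and -0.68 to 0.28) and pi-Phf20 (0.94, and -0.92 to 0.17). The cause was not tested. The difference in share, Mael-/- minus wild type in percentage points, was -13.3 for band-named loci, and became -8.87 with entries summed and -17.9 with the near-identical short rows left out of the total, an alternative added after seeing the data. It was 1.53 with entries summed for gene-named loci, 3.897 for coding and 3.50 for noncoding transcripts, 4.55 to 7.64 for coding transcripts leaving out each library, and 4.67 for short rows with the near-identical ones left out. The near-identical short rows were picked by high wild-type counts, which bears on both values that leave them out. Precision is limited by 2 libraries a genotype and by totals from 4832512 to 44418162 counts.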
